A study of Mus musculus with 6 samples.

Results

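Trpm5, Chat, Pou2f3, Gnat3, Il25 and Avil mark the tuft-like cells of the nose, which are called Trpm5 microvillous cells in the olfactory epithelium and brush or solitary chemosensory cells in the respiratory epithelium. These 6 genes were taken by symbol from the 40273 genes of the deposited table, and all 6 were found there. The libraries came from the olfactory mucosa of 6 male mice on postnatal day 30, each on the mixed background 129S6;C57BL/6J. In 3 control mice, labelled wildtype, the eC element was intact, and in 3 mice, labelled delta eC, it was deleted; no other allele or agent is given for either group. The element is a stretch of 1005 bp on chromosome 7 (102916999 to 102918004, read here as GRCm38) that the series title names as an enhancer of class I odorant receptors, and the comparison asks which genes differ in level without it. Trpm5 lies on the same chromosome, 40.2 Mb above the element.

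Tuft-like cells are rare epithelial cells with a brush of stiff microvilli, and they sense irritants, microbial products and odorous compounds. In the cascade of taste cells, a receptor activates gustducin, whose alpha subunit is the product of Gnat3. Phospholipase C beta then releases calcium through an inositol trisphosphate receptor, and calcium opens the cation channel Trpm5. Which of these steps each kind of tuft-like cell uses cannot be read from whole tissue. The cells answer with acetylcholine, which is made by choline acetyltransferase (Chat), and with the cytokine interleukin 25 (Il25), which acts on innate lymphoid cells. Pou2f3 is the POU-domain transcription factor without which these cells do not form, and Avil encodes advillin, an actin-binding protein of their microvilli.

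The libraries held 30342763 to 50906277 reads assigned to genes. They fell into 2 sets by the number of genes with at least 1 read, a split not given in the labels. Set A, with 26564 to 27879 such genes, is made up of control 1 with deletion 1 and deletion 2. Set B, with 36197 to 37456, holds deletion 3 with control 2 and control 3. Each of the 6 libraries bore out its label at Olfr571, a receptor gene that the element overlaps, with 39.5 to 45.1 normalized counts across the controls and no read in any deletion library. The 5 markers used for mature olfactory neurons, among them Omp and Cnga2, lay between 11196 and 181804 normalized counts in every library, and the sustentacular cell marker Cyp2g1 between 113273 and 130154. The tissue label is therefore met by its main cell types, and the tuft-like genes stand far below them. All values come from whole tissue, in which fewer cells of a type and less RNA per cell cannot be told apart.

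Pou2f3 belongs to the POU2 factors, which are known to bind the octamer ATGCAAAT. The 250 bases before the transcription start are shown for 3 of the genes. Trpm5 is shown as the channel that names the cells. Avil and Chat are shown because their windows hold 7 of the 8 octamer bases in an unbroken run. Octamers with a mismatch inside the word were not searched for. The sequences are from RefSeq on GRCm38.p6, which gave a window for 4 of the 6 genes (Trpm5, Avil, Chat and Gnat3), and they run 5′ to 3′ on the strand of the gene. The windows are chr7:143094643-143094892 (minus strand) for Trpm5, chr10:127000459-127000708 (plus strand) for Avil and chr14:32465910-32466159 (minus strand) for Chat, whose RefSeq start lies inside the gene as GENCODE draws it. Capitals mark ATGCAAA or TGCAAAT on either strand.
Trpm5: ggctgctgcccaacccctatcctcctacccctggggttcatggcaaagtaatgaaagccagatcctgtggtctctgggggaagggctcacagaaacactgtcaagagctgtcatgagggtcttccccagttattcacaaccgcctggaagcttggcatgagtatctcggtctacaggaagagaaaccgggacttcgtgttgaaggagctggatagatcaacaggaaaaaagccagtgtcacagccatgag
Avil: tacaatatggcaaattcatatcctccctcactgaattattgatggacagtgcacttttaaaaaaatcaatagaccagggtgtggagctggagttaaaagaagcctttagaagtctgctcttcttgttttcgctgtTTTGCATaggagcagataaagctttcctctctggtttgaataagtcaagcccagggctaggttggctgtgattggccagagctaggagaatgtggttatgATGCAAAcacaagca
Chat: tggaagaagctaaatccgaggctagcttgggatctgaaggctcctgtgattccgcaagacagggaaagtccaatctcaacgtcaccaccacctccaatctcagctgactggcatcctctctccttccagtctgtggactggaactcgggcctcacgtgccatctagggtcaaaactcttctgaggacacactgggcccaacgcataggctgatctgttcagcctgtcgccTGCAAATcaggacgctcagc
None of the 4 windows held the full octamer on either strand, which 1.60% of all 32851 RefSeq windows of this length did. Avil held ATGCAAA at 2 places, the nearer starting 15 bases before the transcription start, and Chat held TGCAAAT 20 bases before it. These 7-base words, which overlap each other within an octamer and were chosen after the sequences had been seen, occurred in 4.12% and 3.56% of all windows. The windows of Trpm5 and Gnat3 held neither word. A match is a description of the letters and not a binding site.

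None of the 6 genes passed the test for a difference between deletion and control mice. The test was limma on log2(value + 1), with a Benjamini-Hochberg adjusted p under 0.05 as the threshold. All 6 genes passed the filter on low values (at least 10 in at least 3 libraries). Of the 6, 0 were called, where 0.0736% of the 20368 genes tested were (0.0295% called higher). The 15 called genes all lie on chromosome 7, and of the 6 genes only Trpm5 does. The adjusted p of the 6 genes lay between 0.982 and 0.994 (limma), and 0 of them had an unadjusted p under 0.05. With edgeR, DESeq2 and limma voom 0 of them were called too. The fold changes lay above 0 for 4 genes and below 0 for 2, with a median log2 of 0.04, beside 0.01 over all genes tested. In the authors' deposited table the adjusted p-value of each of the 6 genes was 1.00.

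**Figure D1:**
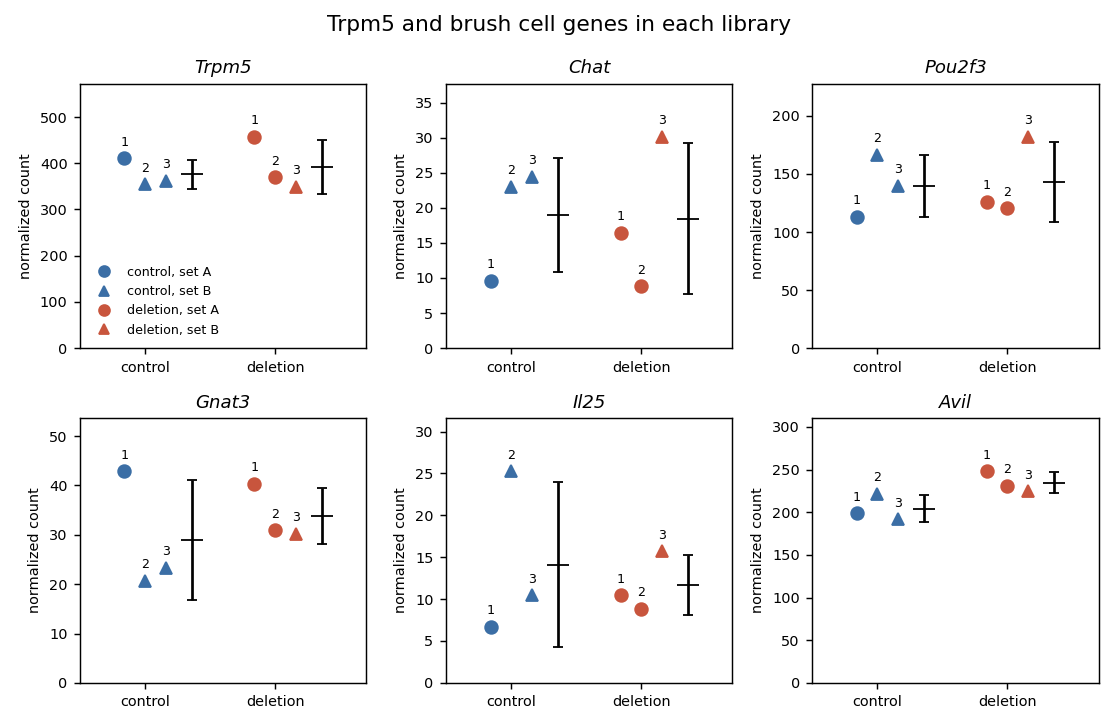
Normalized counts of the 6 genes in each library, by group, with the replicate number above each point, circles for library set A and triangles for set B; the bar to the right of each group is its mean ± SD (n = 3). In Avil alone all 3 deletion values (225 to 248) lie above all 3 control values (192 to 222).

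Trpm5, the calcium-gated cation channel at the end of the cascade, was the gene of the 6 with the most reads (289 to 613 per library). It had 411, 355 and 362 normalized counts in control replicates 1, 2 and 3 and 458, 369.8 and 349 in deletion replicates 1, 2 and 3. The groups overlapped, and replicate 1 was the highest library of both. The means were 376 ± 30.7 and 392 ± 57.9 (SD, n = 3), which differed by 0.05 ± 0.13 on the log2 scale (SE; adjusted p = 0.982, limma), and the 95% interval of the fold ran from 0.849 to 1.27. Within 220 bp, or 3.44% of its exonic length, Trpm5 (ENSMUSG00000009246.14, chromosome 7, 143069153 to 143094642, minus strand) shares exons with Tssc4 on the opposite strand. The strand setting of the count could not be read from the labels, so reads of these bases are uncertain. Tssc4 itself had 1186 ± 48.6 and 1188 ± 47.95 normalized counts as the control and the deletion mean (SD, n = 3).

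Gnat3, the alpha subunit of gustducin (ENSMUSG00000028777.8, chromosome 5, 17962549 to 18019834), had 42.9, 20.7 and 23.3 normalized counts across the controls and 40.3, 30.9 and 30.2 in the deletion libraries, from 18 to 58 reads. Control replicate 1 was the highest and the other two controls were the lowest, so the control values enclosed those of the deletion mice. The means were 28.9 ± 12.1 and 33.8 ± 5.67 (SD, n = 3; difference in log2 0.28 ± 0.33, adjusted p = 0.982, limma), and the interval of the fold, 0.718 to 2.05, spans a doubling.

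Pou2f3 (ENSMUSG00000032015.15, chromosome 9, 43123939 to 43210369) had 113, 166 and 139.5 normalized counts across the controls and 126, 120.3 and 182 in the deletion libraries. The groups overlapped and had nearly the same means, 139.7 ± 26.7 and 143 ± 34.2 (SD, n = 3), a difference of 0.03 ± 0.21 in log2 (adjusted p = 0.994, limma) with a fold between 0.729 and 1.42. Its coactivators are known in humans as the products of C11orf53 and COLCA2. The mouse genes 1810046K07Rik and Gm684 were looked up for them outside the naming rule; RefSeq lists Gm684 as a synonym of Colca2, and the first match rests on background knowledge. 1810046K07Rik had 33.7 ± 6.18 and 37.8 ± 3.42 normalized counts and Gm684 439 ± 35.9 and 387 ± 49.8 as the control and the deletion mean (SD, n = 3), and neither passed (adjusted p = 0.982 each, limma).

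Avil (ENSMUSG00000025432.11, chromosome 10, 127000709 to 127020994) had 199, 222 and 192 normalized counts across the controls and 248, 231 and 225 in the deletion libraries. Every deletion library lay above every control, which 3.66% of the genes tested also showed in this direction. The means were 204 ± 15.5 and 234 ± 12.2 (SD, n = 3), which differed by 0.20 ± 0.11 in log2 (adjusted p = 0.982, limma; 0.559 to 1.00 over its alternatives), with a fold between 0.962 and 1.37. By exact permutation of the group labels the two-sided p was 0.1, the smallest that 3 against 3 animals allow. With the library set as a term the log2 fold change was 0.19 ± 0.12 (adjusted p = 1.00, limma). Avil shares 165 bp of exon, 4.86% of its exonic length, with Tsfm on the opposite strand, and Tsfm had 510.4 ± 60.2 and 507 ± 44.5 normalized counts as the control and the deletion mean (SD, n = 3). Peripheral sensory neurons also express Avil: of 5 of their markers 4 could be tested and 0 passed (limma, with 0 at an unadjusted p under 0.05, and 0 by edgeR, DESeq2 and limma voom). The sum of these 5 markers lay between 1129 and 1338 normalized counts across the controls and between 1077 and 1168 in the deletion libraries, most of it from Prph and Isl1. Scn10a, a sodium channel of pain-sensing neurons, is named after its values were seen. It had 0 to 1.10 normalized counts in set A and 15.7 to 18.4 in set B. Its difference of set B minus set A was 3.48 in log2, beside 1.85 for Trpv1, 0.26 for Prph and -0.18 for Isl1. Calca was not tested and was highest in deletion replicate 2 of set A (15.5). Over the tested genes with a mean under 50, the 95th percentile of this difference was 2.79. The part of these neurons in the level of Avil was not tested.

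The 2 genes of the output, Chat and Il25, were the lowest and the least certain. Chat (ENSMUSG00000021919.7, chromosome 14, 32408203 to 32465989) had 9.61, 23.0 and 24.4 normalized counts across the controls and 16.4, 8.83 and 30.2 in the deletion libraries, from 8 to 25 reads. The lowest and the highest value both belonged to the deletion group, so the groups overlapped. The means were 19.0 ± 8.16 and 18.5 ± 10.8 (SD, n = 3; difference in log2 -0.09 ± 0.53, adjusted p = 0.992, limma), and the fold could lie anywhere between 0.402 and 2.19.

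Il25 (ENSMUSG00000040770.5, chromosome 14, 54932695 to 54935837) had 6.65, 25.3 and 10.5 normalized counts across the controls and 10.5, 8.83 and 15.7 in the deletion libraries, from 8 to 22 reads. Control replicate 2 stood above the other five libraries. The means were 14.1 ± 9.83 and 11.7 ± 3.58 (SD, n = 3; difference in log2 -0.10 ± 0.53, adjusted p = 0.991, limma), with a fold between 0.399 and 2.19. For Chat and Il25 a change of 2-fold in either direction is thus within the interval, whereas for Trpm5, Pou2f3 and Avil it is outside.

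**Figure D2:**
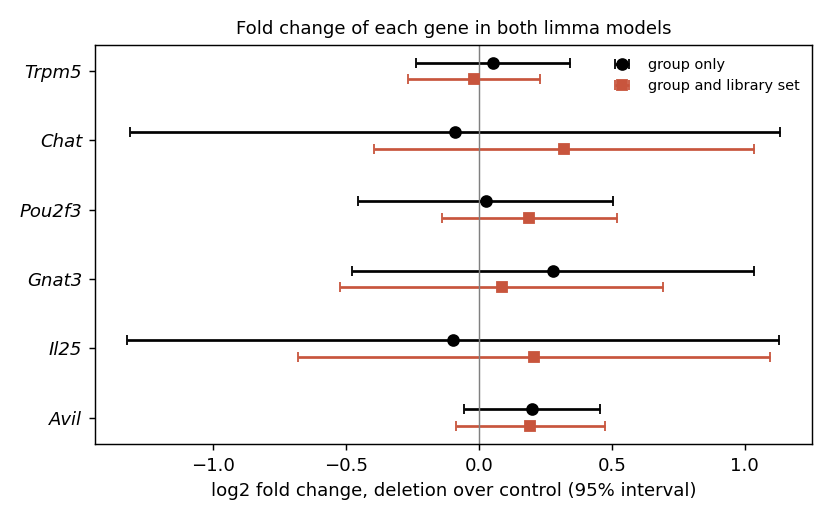
Log2 fold change of deletion over control with its 95% interval for each gene, from limma with the group as the single term (black circles) and with the library set as a second term (red squares). All 12 intervals include 0, and those of Chat and Il25 are the widest.

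The 6 genes did not vary together across the libraries. Chat was lower in each library of set A (8.83 to 16.4 normalized counts) than in each of set B (23.0 to 30.2), and fitted beside the group it was 2.35-fold higher in set B (log2 1.23 ± 0.32, SE). Pou2f3 was 1.41-fold higher in set B (log2 0.49 ± 0.15) and also did not overlap between the sets. Il25 was 1.89-fold higher (0.92 ± 0.39), with the lowest library of set B level with the highest of set A at 10.5. Trpm5 and Gnat3 went the other way, at 0.86 and 0.67 of their set A level (log2 -0.22 ± 0.11 and -0.58 ± 0.27), each without overlap, and Avil did not part the sets (-0.02 ± 0.12).

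**Figure D3:**
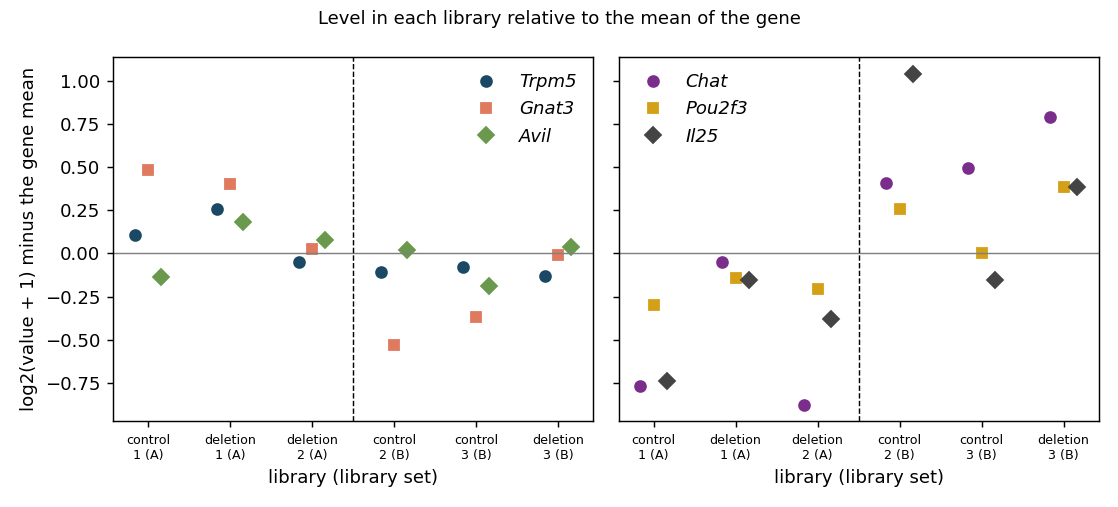
Log2(value + 1) of each gene minus its own mean over the 6 libraries, with set A to the left and set B to the right of the dashed line. Chat, Pou2f3 and Il25 are at or below their mean in all 3 libraries of set A, while Trpm5 and Gnat3 are at their highest in control replicate 1 and deletion replicate 1.

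These differences are descriptions without a test, since the sets were read off the libraries themselves. The share of all genes tested that did not overlap between the sets is not given here. The lack of overlap therefore cannot be read as particular to these genes. Over all genes tested the difference of set B minus set A had a median log2 of -0.02, with quartiles from -0.17 to 0.15. Over the 4786 tested genes with a mean under 50 normalized counts, the range of Chat, Gnat3 and Il25, the median was 0.29 and the quartiles ran from -0.06 to 0.80. Chat and Il25 lay above that range and Gnat3 below it. Control replicate 1 and deletion replicate 1, in which Trpm5 and Gnat3 were highest, were also the libraries with the most reads. The part of depth or of the number of genes detected was not tested.

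Per unit of Trpm5 the other genes therefore differed between libraries. On the scale of normalized counts per kb of exon, Chat reached 3.18 to 4.88 for each 100 of Trpm5 in set A and 8.81 to 11.8 in set B. Pou2f3 reached 57.0 to 67.4 in set A and 79.9 to 108 in set B, and Il25 9.73 to 14.4 and 17.4 to 42.8. Trpm5 itself was lower in set B, which widens these gaps. Gnat3 overlapped between the sets, at 39.3 to 49.0 in set A and 27.4 to 40.7 in set B. Avil was the steadiest of them against Trpm5, at 91.1 to 121 over the 6 libraries. By group, Chat stood at 7.06 ± 3.36 in control and 6.63 ± 4.52 in deletion mice (SD, n = 3).

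Per length, Avil and Trpm5 had the highest levels of the 6 genes and Chat the lowest. Avil had 64.5 ± 6.11, Trpm5 60.0 ± 6.62 and Pou2f3 45.8 ± 8.90 normalized counts per kb of exon (mean ± SD over all 6 libraries), and neighbours in this order overlapped. Gnat3 followed at 23.0 ± 6.53, below every library of Pou2f3. Il25 was at 12.1 ± 6.35 and overlapped with Gnat3, and Chat at 3.98 ± 1.82 overlapped with Il25. Among all genes tested that have an annotated length, these levels lie at percentile 39.1 for Avil, 38.0 for Trpm5, 34.1 for Pou2f3, 24.4 for Gnat3, 15.9 for Il25 and 4.52 for Chat. The exon length counts every annotated transcript, including retained introns of Trpm5, which lowers its value per kb.

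**Figure D4:**
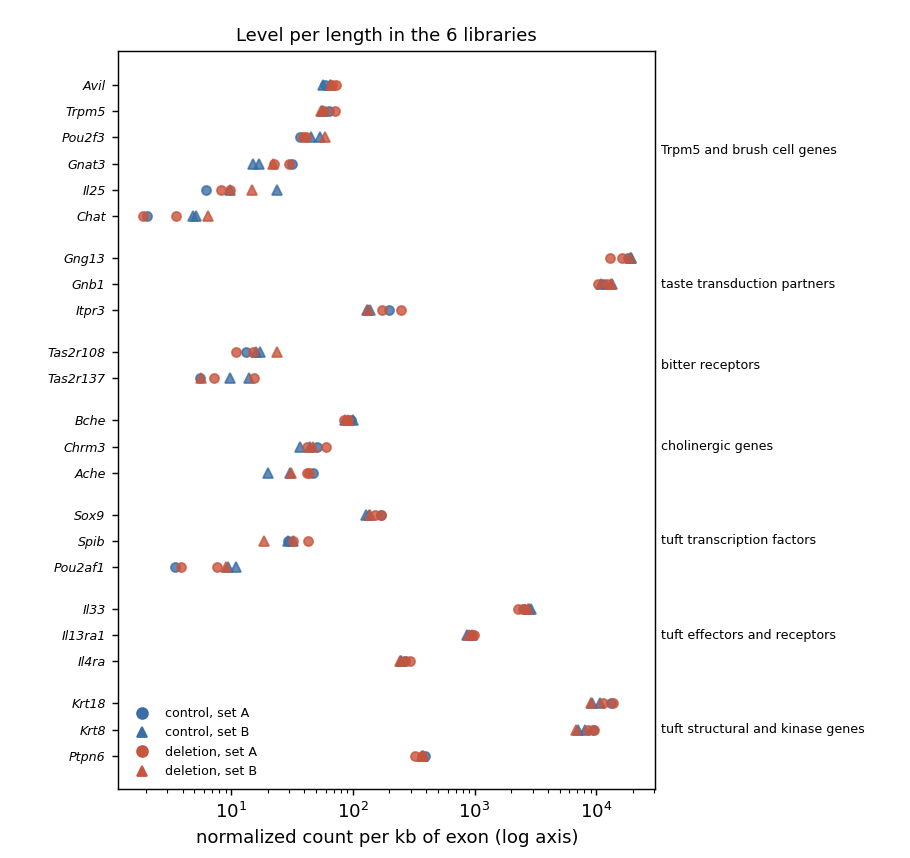
Normalized counts per kb of exon (log axis) in the 6 libraries for the 6 genes and for the 3 most abundant tested genes of each related list (2 for bitter receptors), coloured by group, with circles for set A and triangles for set B. Chat is the lowest gene shown on average, and Gng13 has the highest mean, 17450.

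The other genes of the cascade ranged from a few reads to 57199 normalized counts in a library (Gnb1, control replicate 2), and none was called. Of 11 taste transduction partners 7 could be tested, and 0 rose or fell (0 at an unadjusted p under 0.05, limma; median log2 fold change 0.16). The 4 below the filter were the sweet and umami receptor subunits Tas1r2 (0 to 2 reads per library) and Tas1r1 (1 to 12) and the channel subunits Calhm1 (0 to 2) and Calhm3 (0 to 7). Plcb2, the phospholipase of taste cells, had 74.4 to 98.6 normalized counts, Gnb3, a gustducin beta subunit, 29.0 to 38.6, and Tas1r3, the shared subunit of sweet and umami receptors, 39.5 to 68.0; these genes were named for their role and not by the rule. The subunits Gnb1 (11936 normalized counts per kb) and Gng13 (17450) and the calcium release channel Itpr3 (171) were far above Trpm5 per length. Gng13 and Gnb1 are also used by olfactory neurons. Gng13 had the smallest p of the list, with 14539 ± 498 and 12439 ± 2354 normalized counts as the control and the deletion mean (SD, n = 3; difference in log2 -0.24 ± 0.13, adjusted p = 0.982, limma). Trpm4, the closest relative of Trpm5 among the channels listed, had 796 ± 175 and 985 ± 242 (0.30 ± 0.20, adjusted p = 0.982, limma).

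Bitter receptors were at the edge of detection. All 32 Tas2r genes of the table, 3 of them pseudogenes by symbol, had a read in some library, but together they held 29 to 90 reads per library. Between 8 and 13 of them had a read in the libraries of set A and between 20 and 28 in those of set B. Only Tas2r108 and Tas2r137 could be tested, and 0 of the 2 passed (limma; 0 at an unadjusted p under 0.05). On recovered reads Tas2r108 alone reached the filter, and edgeR, DESeq2 and limma voom did not call it. Tas2r108, a receptor for denatonium, had 15.6 ± 2.11 and 16.9 ± 6.59 normalized counts in control and in deletion mice, and Tas2r137 10.4 ± 4.51 and 10.1 ± 5.58 (SD, n = 3).

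Of the cholinergic genes, the vesicular acetylcholine transporter Slc18a3, which lies within the Chat gene, was not detectable at this depth in 4 of the 6 libraries. It had 1 read in control replicate 2 and 2 in deletion replicate 3; a count of 0 allows up to 3 reads, or 2.22 to 3.49 normalized counts in those 4 libraries. Slc5a7, the choline transporter of cholinergic cells, had 4.42 to 15.1 normalized counts. Acetylcholinesterase (Ache) had 151 ± 63.8 and 179.96 ± 31.7, and the muscarinic receptor Chrm3 had 274 ± 44.1 and 313 ± 58.3 as the control and the deletion mean (SD, n = 3). Of the 9 genes of this list 5 could be tested and 0 passed (0 at an unadjusted p under 0.05, limma; 0 of the 4 that edgeR, DESeq2 and limma voom tested, which left out Slc5a7); the median log2 fold change was 0.18.

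Transcription factors that accompany Pou2f3 in tuft cells showed no called difference either. Of 9 listed, 7 were found by symbol, 5 could be tested and 0 passed (0 at an unadjusted p under 0.05, limma; median log2 fold change -0.04). Sox9, which is shared with Bowman's glands, had 601 ± 97.3 and 633 ± 62.1 normalized counts and the homeobox factor Hmx2 14.6 ± 5.57 and 17.8 ± 1.20 as the control and the deletion mean (SD, n = 3). Spib had 53.1 to 122 normalized counts over the 6 libraries. Pou2af1 had 8.87 to 27.9 and is also a B cell gene; 3 B cell markers summed to 19.9 to 32.1 normalized counts in set A and 41.3 to 60.5 in set B, and to 28.1 to 60.5 in the controls and 19.9 to 50.7 in the deletion libraries. Their part in the level of Pou2af1 was not tested.

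Among 17 effectors and receptors of tuft cells, which include the leukotriene enzymes Alox5 and Ltc4s and the interleukin 25 receptor Il17rb, 13 could be tested and 0 passed (0 at an unadjusted p under 0.05, limma; median log2 fold change 0.06). Il17rb, which tuft cells themselves carry, had 76.1, 74.6 and 73.3 normalized counts across the controls and 88.9, 80.6 and 80.9 in the deletion libraries, without overlap, for which it was named after its values were seen (log2 fold change 0.16 ± 0.15, adjusted p = 0.982, limma). Il17ra, the subunit it pairs with, had 770.5 ± 112 and 868 ± 87.0 (SD, n = 3). Ptgs2, the inducible prostaglandin synthase, had 110.1, 266 and 717 normalized counts across the controls and 224, 132 and 126 in the deletion libraries, which makes -0.83 ± 0.59 in log2 (adjusted p = 0.982, limma) that was -0.14 without control replicate 3. Within set B, which has a single deletion library, limma called Ptgs2 lower (log2 -1.79, adjusted p = 0.00102), and within set A its sign was the opposite (0.64, adjusted p = 1.00).

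All 16 structural and signalling genes of tuft cells could be tested, and 0 passed (0 at an unadjusted p under 0.05, limma; median log2 fold change 0.04). The adaptors Sh2d6 and Sh2d7 had the smallest p. Sh2d7 had 206, 194 and 164 normalized counts across the controls and 226, 219 and 208 in the deletion libraries, which did not overlap (log2 fold change 0.21 ± 0.12, adjusted p = 0.982, limma). Sh2d6 had 61.1 ± 10.3 and 82.2 ± 12.9 (SD, n = 3; 0.42 ± 0.20, adjusted p = 0.982, limma), with an overlap. Over all 6 lists, 2 of the 48 genes tested, Il17rb and Sh2d7, had every deletion library above every control, where 3.66% of all genes tested did, and 0 had every deletion library below, where 4.02% did. Their median log2 fold change was 0.05, beside 0.01 for all genes tested.

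By the distance used here, no other gene of the 6 was among the nearest to Trpm5. By the root mean square distance between centred log2 values over the 6 libraries, the nearest of the 20367 other genes tested were Plxdc2, Nfe2l3, Kcnj15, Prodh and Cyfip1, at distances of 0.022 to 0.025. Avil came at rank 6633 (distance 0.15), Gnat3 at 14355 (0.27), Pou2f3 at 16227 (0.35), Il25 at 18917 (0.66) and Chat at 19085 (0.71). Few reads widen this distance by themselves, and so do larger swings in the same direction. Gnat3, like Trpm5, was lower in set B than in set A, but by more (log2 -0.58 against -0.22). The ranks therefore do not show whether genes rise and fall together. Of the related genes Ptgs1, a prostaglandin synthase of tuft cells, was nearest to Trpm5 (0.077). Il17rb was nearest to Avil (0.066), Chrm1 to Gnat3 (0.10), Gnb1 to Pou2f3 (0.18), Pou2af1 to Chat (0.21) and Vil1, the microvillar protein villin, to Il25 (0.33).

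Trpm5 is the single gene of the 6 on the chromosome of the element, where 0.851% of the 1762 genes tested changed, 15 in all. None of the 18 tested genes within 0.5 Mb of Trpm5 passed (limma, with 0 at an unadjusted p under 0.05, and 0 by edgeR, DESeq2 and limma voom), and their median log2 fold change was near 0 (-0.00315). Within 2 Mb 1 of 85 genes passed, and 2 did with DESeq2 or when the set was fitted too. The called gene was Gm14372, which rose and lies 1273 kb above Trpm5, with 13.9 ± 2.05 and 107 ± 14.3 normalized counts as the control and the deletion mean (SD, n = 3; adjusted p = 0.00435, limma). The nearest called gene below was Cfap46, 3385 kb away, with 1161 ± 106 and 2193 ± 58.5 (SD, n = 3; adjusted p = 0.00749, limma). Trpm5 lies 11.7 kb from Kcnq1, a potassium channel gene of an imprinted domain. Kcnq1ot1, the non-coding RNA that organises this domain, lies on the same side of Trpm5. On the other side lie the tetraspanin gene Cd81 and R74862. The log2 fold changes of these neighbours lay between -0.07 (R74862) and 0.13 (Kcnq1ot1), with no call.

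**Figure D5:**
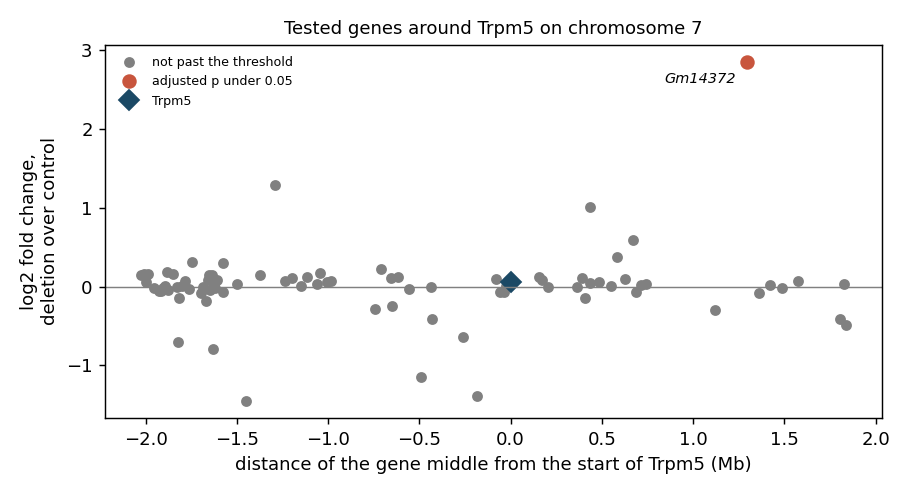
Log2 fold change of deletion over control for the tested genes within 2 Mb of Trpm5, by the distance of each gene's middle from the start of Trpm5 in Mb. Trpm5 (diamond) is at 0.05 and Gm14372 (red) at 2.86 is the gene past the threshold.

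The other microvillous cell of the olfactory epithelium, an ionocyte-like type without Trpm5, had 5 of 5 markers tested and 0 called (limma, with 0 at an unadjusted p under 0.05, and 0 by edgeR, DESeq2 and limma voom). Its factor Ascl3 had 1536 normalized counts per kb of exon (1312 to 1956) and Foxi1 335 (237 to 449), both above the range of Pou2f3 (36.6 to 59.0). The 11 tuft cell markers summed to 6067 to 6621 normalized counts across the controls and 5947 to 6282 in the deletion libraries. Dclk1, which olfactory neurons also express, made up most of that sum, with 4426 to 5141.

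Markers of the remaining cell types were not called either (limma, edgeR, DESeq2 and limma voom), and their part in the levels above was not tested. The 3 markers of horizontal basal cells summed to 3197 to 4944 normalized counts in control and 3643 to 5133 in deletion mice, and the 3 of ciliated cells to 14116 to 18201 and 17634 to 21452. Each of these lists held 1 gene with an unadjusted p under 0.05, Trp63 (adjusted p = 0.982, limma) and Dnah5 (adjusted p = 0.982, limma), which are named here after their values were seen. Over the 16 alternatives the log2 fold change of Dnah5 lay between 0.29 and 0.67, and at least 1 of them called it higher. The 4 macrophage markers summed to 2001 to 2592 and 2172 to 2716, the 4 mast cell markers to 569.8 to 890.03 and 659 to 886, and the 4 sustentacular markers to 203514 to 240201 and 209815 to 225121, each with 0 at an unadjusted p under 0.05. Of the mast cell markers only 2 could be tested, and Kit made up most of their sum, with 540 to 864 normalized counts.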

How the data were processed

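Olfactory mucosa RNA was ribodepleted and made into stranded Illumina libraries, per the labels' protocols. STAR 2.6.0, DESeq2 and GRCm38.p6 are named in the submitters' processing notes; for the counting step, the sources used here give neither tool nor annotation nor strandedness. The authors deposited 1 table with, per the file headers, a normalized value per gene and library, used here as a signal, since the authors scaled each library's gene counts by a size factor. Its other columns are the authors' log2 fold change (control over deletion) and its standard error, a test statistic (a score), and the p-value and adjusted p-value.

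Divided by what 1 read is worth in its library, 100% of the nonzero values came out whole (within 0.001 reads), so reads were recovered. Because the values are normalized, the main test was limma 3.58.1 (trend, R 4.3.3), fitted to log2(value + 1) by group alone. It covered the 20368 genes that reached 10 in at least 3 libraries, and p was adjusted over them by Benjamini-Hochberg. Fold changes on this scale understate those of low genes. On recovered reads with at least 10 in at least 3 libraries, edgeR 4.0.16 called 15 genes, as limma did, and DESeq2 1.42.0 called 46. Libraries of a group differed beyond sampling noise (chi-square per gene 17.4 to 47.5). Positions and exon lengths came from GENCODE vM21, in which 40012 of 40273 identifiers were found without their version. The functions were tested on simulated counts.

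The genes and lists were chosen with earlier results of these data known. The naming rule took the 6 genes, of each related list the 3 most abundant tested genes per kb, the 2 with the smallest p and any called, the nearest tested and called genes on either side of Trpm5, and the nearest profiles. The alternatives were another pseudocount, no filter, edgeR, DESeq2, limma voom, the library set as a term or each set alone, the replicate number as a block, and leaving out each library. The design text gives separate animals, so p-values measure the spread between them; counting floors and read numbers cover counting error only. The result of 1 list of cell type markers is not reported here.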

Additional observations from a re-analysis of the deposited data

How the results depend on the processing

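None of the 6 genes passed under any of the 16 alternatives (0 calls, and 0 at an unadjusted p under 0.05). Across all genes the count of 15 was 18 without a filter, 46 with DESeq2, 36 with the library set as a term, 2 within set A, 90 within set B and 6 to 24 without 1 library: 9 without control replicate 1, 6 without control replicate 2 or deletion replicate 2, and 24 without deletion replicate 3. The replicate block gave 46 genes and none of the 6. The deviations of same-numbered libraries from their group means correlated at 0.653, -0.337 and 0.662 over genes. Over all pairs of a control and a deletion library, these correlations were 0.502 to 0.662 within a library set and -0.8 to -0.337 between sets. Whether the replicate numbers pair the libraries therefore cannot be read from them. The cause of the changes in the count of genes was not tested.

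The log2 fold changes of uncalled genes changed sign as follows. With the library set as a term they were -0.018 for Trpm5, 0.32 for Chat, 0.21 for Il25, -0.014 for Sox9 and -0.022 for Tssc4. Within set A they were 0.30 for Chat, 0.47 for Il25, -0.27 for Gnat3, -0.014 for Tas2r108, 0.84 for Tas2r137, -0.15 for Ache, -0.0041 for Chrm3, -0.11 for Sox9, 0.64 for Ptgs2, -0.045 for Tssc4 and -0.14 for 1810046K07Rik. Within set B they were -0.038 for Trpm5, 0.34 for Chat, 0.020 for Cd81 and -0.0069 for Kcnq1ot1. Tssc4 was at -0.0067 with edgeR, -0.0069 with DESeq2 and -0.012 with limma voom. Without 1 library the ranges were -0.062 to 0.13 for Trpm5, -0.51 to 0.32 for Chat, -0.16 to 0.16 for Pou2f3, -0.49 to 0.40 for Il25, -0.22 to 0.30 for Tas2r108, -0.46 to 0.20 for Tas2r137, -0.0058 to 0.21 for Sox9, -0.031 to 0.033 for Tssc4 and -0.12 to 0.0056 for R74862. Avil stayed above 0 under all 16 (0.12 to 0.27).

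Ptgs2 passed within set B (-1.79, adjusted p = 0.00102, limma). Gm14372 did not pass without deletion replicate 2 (log2 2.81, adjusted p = 0.104, limma) or within set A (2.75), against 2.86 with all libraries. Cfap46 did not pass without control replicate 2 (0.91, adjusted p = 0.0792, limma), without deletion replicate 2 (0.90, 0.134) or within set A (0.80), against 0.92. Set A has a single control library. Olfr571 did not pass without any 1 control (adjusted p = 0.117 to 0.284, limma) or within set A, at log2 -5.53 to -5.43 against -5.46. Chat and Il25 rest on 8 to 25 reads per library; the SE of Chat was 0.53, or 0.32 once the set was fitted too.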
